A study of Homo sapiens with 16 samples.

Results

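The transcripts of 10 core autophagy genes were followed in 293T cells, a human embryonic kidney line, after depletion of SETD2 or hnRNP L. The genes were ATG13, ATG14, ATG12, ATG7, ATG5, ATG16L1, ATG3, MAP1LC3B, SQSTM1 and TFEB, taken by gene name from the 58884 genes of the deposited expression table. ATG12 and ATG14 were among them because a response to SETD2 has been described for both. All 10 genes passed the filter on low values described below and were tested, among 16300 tested genes.

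SETD2 is the methyltransferase that places H3K36me3 on transcribed genes, and hnRNP L is a splicing regulator that binds RNA rich in CA repeats. Wild-type 293T cells received a scramble siRNA pool, an siRNA pool against SETD2 or an siRNA pool against hnRNP L, all for 72 h, and each siRNA gave 2 RNA-seq libraries. The libraries, called scramble, siSETD2 and sihnRNPL below as in their titles, carry the replicate numbers 1 and 2, except for siSETD2, whose numbers are 2 and 3. Transient knockdown leaves part of each target transcript. The study describes the replicates of its sequencing experiments as biologically independent, while the labels name no separate cultures, so the p-values below rest on the spread between these libraries only.

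Autophagy encloses cytoplasm in a membrane, the autophagosome, which fuses with the lysosome. The ULK1 complex, of which ATG13 is a subunit, starts the process, and ATG14 directs the class III PI3-kinase complex to the site of membrane growth. ATG7 is the E1-like enzyme that activates ATG12 for its transfer to ATG5 and ATG8 proteins such as MAP1LC3B for their transfer to lipid by the E2-like enzyme ATG3. ATG16L1 places the ATG12-ATG5 conjugate on the membrane, SQSTM1 carries ubiquitinated cargo to MAP1LC3B, and TFEB is a transcription factor of autophagy and lysosome genes. TFEB binds the palindromic E-box CACGTG, in its preferred form GTCACGTG, which is the motif that defines the CLEAR network of lysosomal genes.

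The E-box lies in the promoters of 2 of the 10 genes, ATG3 and ATG14. Promoter windows of 250 bases before to 50 bases after a start site were taken from RefSeq (GRCh38.p14), which gave 15 windows for the 10 genes, since some have several start sites. The ATG3 window is chr3:112561913-112562212 on the minus strand, with the motif at positions -18 and 6, where the first transcribed base is 1. The ATG14 window is chr14:55411781-55412080 on the minus strand, with the motif at position -21. The windows of CTSD (chr11:1763878-1764177, minus strand, motif at -47) and NEU1 (chr6:31862772-31863071, minus strand, motif at -126) are shown beside them, because both are lysosomal genes whose transcripts fell after hnRNP L depletion (below). The sequences read 5′ to 3′ on the gene's strand, and capitals mark CACGTG, which reads the same on both strands.
ATG3: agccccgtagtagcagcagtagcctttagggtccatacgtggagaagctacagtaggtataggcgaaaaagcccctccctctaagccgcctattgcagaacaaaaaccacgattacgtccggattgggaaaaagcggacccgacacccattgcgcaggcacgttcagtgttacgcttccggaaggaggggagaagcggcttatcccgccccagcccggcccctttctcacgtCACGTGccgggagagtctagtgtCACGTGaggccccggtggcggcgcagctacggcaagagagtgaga
ATG14: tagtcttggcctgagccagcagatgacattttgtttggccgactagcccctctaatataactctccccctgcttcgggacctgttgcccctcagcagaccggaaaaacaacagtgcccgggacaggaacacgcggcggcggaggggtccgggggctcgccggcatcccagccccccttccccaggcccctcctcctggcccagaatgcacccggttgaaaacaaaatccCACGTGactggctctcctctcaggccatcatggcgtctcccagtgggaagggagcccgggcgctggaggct
CTSD: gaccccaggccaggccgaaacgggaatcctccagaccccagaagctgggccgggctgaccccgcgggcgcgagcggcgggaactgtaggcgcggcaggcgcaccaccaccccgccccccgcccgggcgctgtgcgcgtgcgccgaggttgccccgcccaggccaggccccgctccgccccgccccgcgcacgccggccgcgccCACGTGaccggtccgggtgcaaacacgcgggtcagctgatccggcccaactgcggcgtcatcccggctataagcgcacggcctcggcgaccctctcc
NEU1: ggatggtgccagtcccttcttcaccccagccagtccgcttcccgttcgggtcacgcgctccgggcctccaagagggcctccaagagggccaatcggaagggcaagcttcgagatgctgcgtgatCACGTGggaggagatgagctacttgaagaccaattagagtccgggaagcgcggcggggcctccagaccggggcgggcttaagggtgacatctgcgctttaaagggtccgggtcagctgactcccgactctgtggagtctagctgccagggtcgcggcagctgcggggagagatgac

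Searched on both strands, CACGTG was in 2 of the 15 windows of the 10 genes (13.33%), 9.348% of the 15533 windows of tested genes and 7.256% of all 35116 windows. The longer GTCACGTG, which contains the shorter motif, was in the same 2 windows, those of ATG3 and ATG14, against 3.818% of the windows of tested genes and 2.403% of all windows. The ATG3 matches, the ATG14 match and the CTSD match had this extended form, and the NEU1 match did not. Of 17 lysosomal genes of the CLEAR network, 9 were matched to a window and 8 of these held CACGTG (88.89%), a share that the choice of the list by this motif largely sets. The lysosomal genes without a matched window were LAMP2, CTSB, HEXA, NAGLU, PSAP, SGSH, ATP6V0E1 and ATP6V1H. The motif was not in all genes called lower than scramble after hnRNP L depletion (below). ULK1 and VMP1 had no CACGTG in their windows, and of the TSC2 windows only 1 did. The lysosomal genes CTSA, CTSF, MCOLN1, CLCN7, LAMP1 and ATP6V0D1 held it and were not called. A link between the motif and the fold changes was not tested. A match is a description of the letters in the window, and binding was not measured.

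CA repeats, the kind of sequence that hnRNP L binds, were sought on the sense strand of each gene, which reads as its RNA (hg38, GENCODE release 44). Runs of at least 10 CA units were present in 3 of the 10 genes, against 29.17% of 12802 tested protein-coding genes. ATG7 held 2 runs, ATG5 held 3 and ATG13 held 1, and the longest run of each lies in an intron. Long genes hold more of them, as the median was 3 runs among tested genes of a length like that of ATG7 and 2 among those like ATG5. The longest run of each gene is shown with 40 bases on either side, in capitals, at chr3:11478951-11479080 on the plus strand for ATG7 (25 units), chr6:106111813-106111922 on the minus strand for ATG5 (15 units) and chr11:46656890-46656989 on the plus strand for ATG13 (10 units).
ATG7: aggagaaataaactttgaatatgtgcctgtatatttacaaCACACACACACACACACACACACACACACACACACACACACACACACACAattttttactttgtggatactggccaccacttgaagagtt
ATG5: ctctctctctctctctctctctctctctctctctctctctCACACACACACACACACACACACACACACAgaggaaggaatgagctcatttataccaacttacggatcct
ATG13: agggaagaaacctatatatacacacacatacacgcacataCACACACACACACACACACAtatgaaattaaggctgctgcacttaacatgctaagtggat

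The values are TPM, a transcript abundance scaled for gene length that sums to the same total in each library, so levels of different genes can be compared. Read counts are not kept in TPM, and the counting error of a value is unknown. In RNA from bulk cells, fewer cells expressing a gene and less of its RNA per cell cannot be told apart. Between 24225 and 24987 genes had a TPM above 0 in a library. In scramble replicate 1, mitochondrially encoded genes took 17.52% of all TPM, against 6.702% to 10.86% in the other 5 libraries, and this lowers every other gene's TPM in that library. Fold changes were therefore also computed without this library and on TPM rescaled without the 37 mitochondrially encoded genes. All 5 markers listed for 293T cells were detected in every library, from 1.07 TPM for LHX1 to 454 TPM for NEFM. The neurofilament genes among them rose with hnRNP L depletion, NEFM from 193 ± 13 to 446 ± 12 TPM (SD, n = 2; log2 fold change 1.21, limma adjusted p = 0.00166) and NEFL from 67.3 ± 3.9 to 120 ± 15 TPM (SD, n = 2; 0.82, limma adjusted p = 0.00515), and their part in the results below was not tested. PTPRC (leukocytes) and KRT5 (basal keratinocytes) were 0 throughout, PECAM1 and ALB stayed at or below 0.12 and 0.40 TPM, and COL1A1 was between 2.83 and 5.17 TPM.

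The siRNA targets were measured first. SETD2 was at 13.38 and 11.70 TPM in the scramble libraries, 4.24 and 4.91 in the siSETD2 libraries and 10.80 and 10.24 in the sihnRNPL libraries. HNRNPL was at 341.04 and 457.16 TPM in the scramble libraries, 394.73 and 413.42 in the siSETD2 libraries and 25.04 and 28.81 in the sihnRNPL libraries. Each target was low only in the libraries labelled with its siRNA. The log2 fold change of SETD2 under its siRNA was -1.36 (SE 0.132, limma adjusted p = 0.00603). That of HNRNPL under its siRNA was -3.85 (SE 0.143, limma adjusted p = 8.48e-06). On this fitted log2 scale 38.9% and 6.92% of the scramble level were left. In TPM, the siSETD2 libraries were at 33.81% and 39.15% of the scramble mean of SETD2. The sihnRNPL libraries were at 6.274% and 7.219% of the scramble mean of HNRNPL.

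All 10 autophagy genes were expressed in every library, over a wide range of levels. By mean TPM over the 6 libraries, SQSTM1 was highest at 75.17, followed by ATG3 at 62.64, MAP1LC3B at 41.19, ATG13 at 30.54, ATG12 at 19.57, ATG5 at 13.79, ATG16L1 at 12.47, ATG7 at 6.897, ATG14 at 4.038 and TFEB at 3.307. The median tested gene had a mean of 9.707 TPM, so 7 of the genes were above it and ATG7, ATG14 and TFEB were below. Within each of the 6 libraries the order was the same. Neighbours in this order were nevertheless not separated by their spread over libraries for SQSTM1 and ATG3, MAP1LC3B and ATG13, ATG12 and ATG5, ATG5 and ATG16L1, or ATG14 and TFEB, whose ranges overlapped. The highest library exceeded the lowest by 1.249-fold for SQSTM1 and by up to 1.599-fold for ATG7. The span of means from SQSTM1 to TFEB was far wider than these ranges, while the overlapping neighbours named above were not separated.

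**Figure D1:**
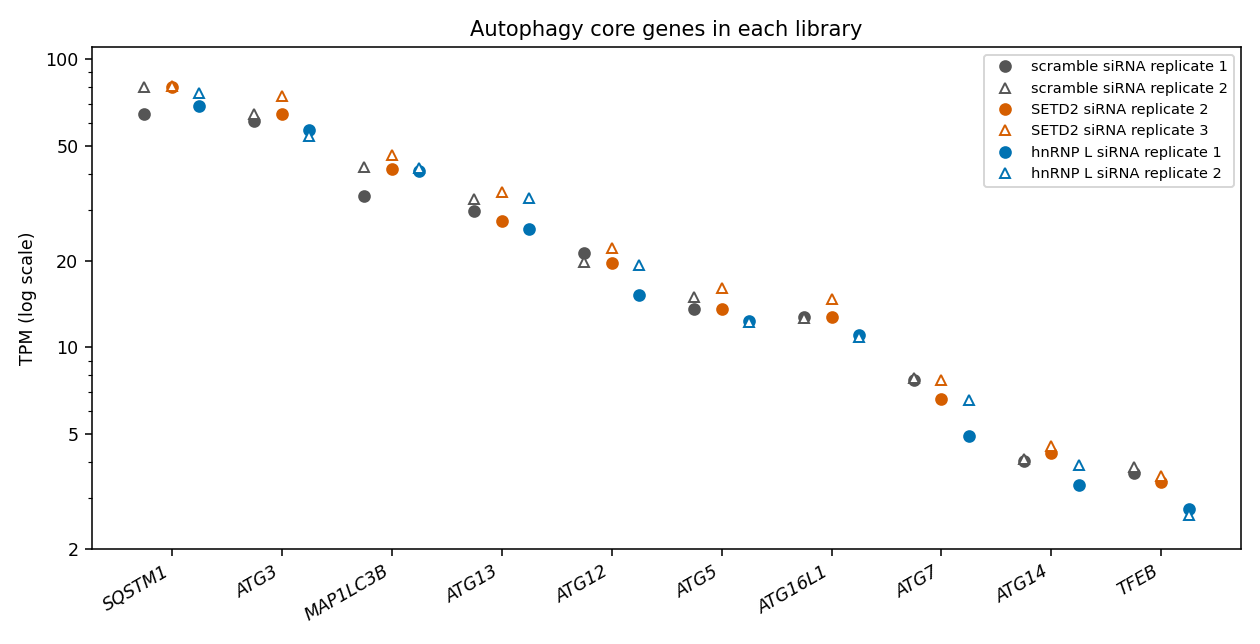
TPM (log scale) of the 10 autophagy genes in each of the 6 libraries, grouped by siRNA, with filled circles and open triangles for the lower- and higher-numbered library of each siRNA. The genes span SQSTM1 at 64.69 to 80.77 TPM down to TFEB at 2.62 to 3.84 TPM, and the libraries of a gene lie close together beside that range.

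None of the 10 autophagy genes passed the test in any of the 3 comparisons. The test was limma on log2(TPM + 0.5) over all 16300 genes with a mean of at least 0.5 TPM, and calls needed both a fold change of more than 1.5 and a Benjamini-Hochberg adjusted p below 0.05. After SETD2 depletion 0 of 10 were called, against 0.104% of all tested genes, and 0 of 10 had an unadjusted p under 0.05, against 13.1%. After hnRNP L depletion 0 of 10 were called, against 6.76%, and 2 of 10 had an unadjusted p under 0.05, against 28.4%. Between the 2 depletions 0 of 10 were called, against 6.84%, and 3 of 10 had an unadjusted p under 0.05, against 28.5%. With 2 libraries on each side, exact permutation of the labels of 1 gene has a smallest possible two-sided p of 0.333. Both depletions are compared with the same scramble libraries, so their fold changes are not independent of each other.

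ATG12 and ATG14, the genes named for SETD2, were not called between SETD2 and scramble siRNA. ATG12 measured 21.26 and 19.78 TPM in the scramble libraries and 19.62 and 22.15 in the siSETD2 libraries, and the libraries of the groups interleaved. ATG12 had a log2 fold change of 0.023 (95% interval -0.29 to 0.33, limma adjusted p = 0.959), an interval of 0.819-fold to 1.26-fold. ATG14 measured 4.02 and 4.10 TPM in the scramble libraries and 4.31 and 4.56 in the siSETD2 libraries, so both SETD2 siRNA libraries were the higher. ATG14 had a log2 fold change of 0.11 (95% interval -0.21 to 0.44, limma adjusted p = 0.764), an interval of 0.863-fold to 1.36-fold. On TPM without mitochondrially encoded genes, ATG14 was at 4.874 and 4.450 with scramble siRNA and 4.621 and 4.888 with SETD2 siRNA, and the groups overlapped.

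With hnRNP L siRNA, ATG12 measured 15.24 and 19.37 TPM and ATG14 3.33 and 3.91 TPM, all below both scramble libraries of the same gene. The log2 fold change was -0.25 for ATG12 (95% interval -0.56 to 0.06, limma adjusted p = 0.271) and -0.15 for ATG14 (95% interval -0.48 to 0.18, limma adjusted p = 0.538). Most of this distance lay in replicate 1, and without it the values were -0.080 and -0.048. Compared directly, hnRNP L siRNA gave -0.27 against SETD2 siRNA for ATG12 (limma adjusted p = 0.231) and -0.26 for ATG14 (limma adjusted p = 0.268).

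ATG13, the initiation subunit, varied more within groups than between them. It measured 29.65 and 32.70 TPM in the scramble libraries, 27.41 and 34.75 in the siSETD2 libraries and 25.68 and 33.07 in the sihnRNPL libraries. The groups overlapped in every comparison, with log2 fold changes of -0.012, -0.094 and -0.081 for SETD2 against scramble, hnRNP L against scramble and hnRNP L against SETD2 siRNA. ULK1, the kinase of the same complex, was at 14.33 and 15.97 TPM in the scramble libraries, 15.00 and 15.39 in the siSETD2 libraries and 9.67 and 10.14 in the sihnRNPL libraries, and fell after hnRNP L depletion (log2 fold change -0.59, limma adjusted p = 0.016). The ratio of ATG13 to ULK1 TPM within a library was 2.06 ± 0.015 (SD, n = 2) with scramble, 2.04 ± 0.30 (SD, n = 2) with SETD2 and 2.96 ± 0.43 (SD, n = 2) with hnRNP L siRNA.

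ATG7 and TFEB were the genes lowest relative to scramble after hnRNP L depletion. ATG7, the E1-like enzyme, measured 7.72 and 7.85 TPM in the scramble libraries, 6.61 and 7.70 in the siSETD2 libraries and 4.91 and 6.59 in the sihnRNPL libraries. TFEB measured 3.65 and 3.84 TPM in the scramble libraries, 3.41 and 3.58 in the siSETD2 libraries and 2.74 and 2.62 in the sihnRNPL libraries. For both genes every hnRNP L siRNA library was below every other library, and both SETD2 siRNA libraries were below both scramble libraries. On TPM without mitochondrially encoded genes ATG7 overlapped between the depletions, with 7.226 in sihnRNPL replicate 2 and 7.087 in siSETD2 replicate 2. The hnRNP L fold change on the log2 scale was -0.42 for ATG7 (SE 0.159, unadjusted p = 0.0276, limma adjusted p = 0.123) and -0.42 for TFEB (SE 0.144, unadjusted p = 0.018, limma adjusted p = 0.0975). On the fitted log2 scale these correspond to 74.8% and 74.9% of the scramble level, and they did not pass the test. In TPM, the sihnRNPL libraries were at 63.07% and 84.65% of the scramble mean for ATG7 and 73.16% and 69.96% for TFEB. Without hnRNP L siRNA replicate 1 the log2 fold change of ATG7 was -0.22. Under SETD2 siRNA the values were -0.12 for ATG7 (limma adjusted p = 0.782) and -0.088 for TFEB (limma adjusted p = 0.826). TFEB made up 13.7% ± 0.29 (SD, n = 2) of the summed TPM of its family with scramble siRNA and 12.2% ± 1.0 (SD, n = 2) with hnRNP L siRNA.

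The ATG12 acceptor ATG5, its partner ATG16L1 and the E2-like enzyme ATG3 shared a pattern, with a raised SETD2 siRNA replicate 3 and both hnRNP L siRNA libraries lowest. ATG5 measured 13.55 and 14.96 TPM in the scramble libraries, 13.58 and 16.05 in the siSETD2 libraries and 12.38 and 12.25 in the sihnRNPL libraries. ATG16L1 measured 12.79 and 12.64 TPM, 12.75 and 14.73 TPM, and 11.01 and 10.90 TPM in the same order of groups. ATG3 measured 61.23 and 64.50 TPM, 64.61 and 74.60 TPM, and 56.61 and 54.31 TPM. The hnRNP L siRNA libraries of each gene were below all others, by a log2 fold change against scramble of -0.20 for ATG5, -0.21 for ATG16L1 and -0.18 for ATG3 (limma adjusted p between 0.285 and 0.322). Against SETD2 siRNA the difference was -0.25 for ATG5, -0.31 for ATG16L1 and -0.32 for ATG3, whose limma adjusted p of 0.0853 was the lowest of any of the 10 genes. SETD2 siRNA replicate 3 was above replicate 2 for 10 of the 10 genes and for 65.46% of all tested genes, and without replicate 3 the ATG3 difference between the depletions was -0.22 (limma adjusted p = 0.377).

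MAP1LC3B and SQSTM1, the lipid-linked ATG8 protein and the receptor that binds it, did not share the lower hnRNP L values. MAP1LC3B measured 33.59 and 42.42 TPM in the scramble libraries, 41.75 and 46.58 in the siSETD2 libraries and 40.83 and 41.98 in the sihnRNPL libraries. SQSTM1 measured 64.69 and 80.23 TPM in the scramble libraries, 80.23 and 80.77 in the siSETD2 libraries and 69.03 and 76.09 in the sihnRNPL libraries. In both genes scramble replicate 1 was the lowest of the 6 libraries, and it is the library with the high mitochondrial share. The SETD2 siRNA fold change of MAP1LC3B was the largest of the 10 genes in that comparison, at 0.22 on the log2 scale (SE 0.128, limma adjusted p = 0.478), and it was 0.055 without scramble replicate 1. That of SQSTM1 was 0.16 (limma adjusted p = 0.601) and 0.0048 without that library. The hnRNP L siRNA values were 0.13 for MAP1LC3B and 0.0085 for SQSTM1, and -0.035 and -0.15 without scramble replicate 1. MAP1LC3B made up 8.97% ± 0.43, 8.73% ± 0.35 and 8.48% ± 0.42 (SD, n = 2) of the summed ATG8 TPM with scramble, SETD2 and hnRNP L siRNA. Its near-identical copy MAP1LC3B2 had 0.81 to 1.40 TPM, and reads shared with it cannot be told apart in these values.

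**Figure D2:**
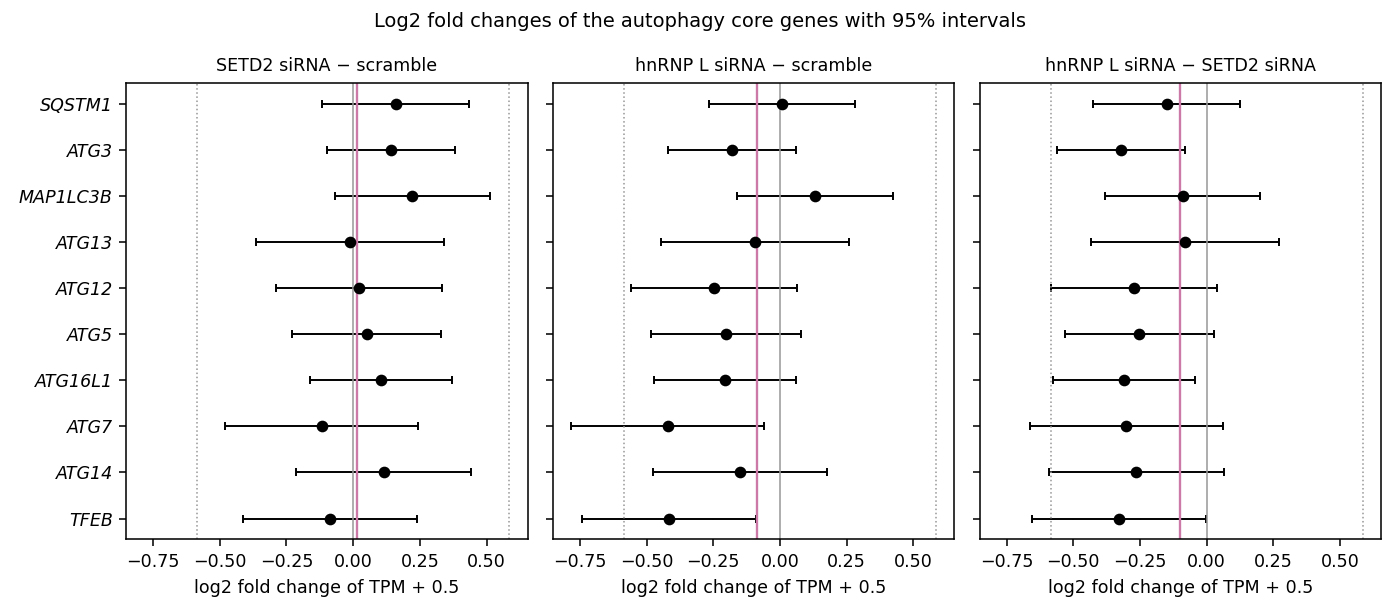
Log2 fold change of TPM + 0.5 (horizontal axis) of the 10 autophagy genes in the 3 comparisons, with points for the limma estimates and bars for 95% intervals. Grey vertical lines mark 0, dotted lines a 1.5-fold change and coloured lines the median of all tested genes. In the SETD2 siRNA panel all 10 intervals include 0 and lie within the dotted lines, and in the last panel all 10 estimates are below 0, although those of ATG13 and MAP1LC3B are above 0 under median-ratio scaling.

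For SETD2 depletion the intervals bound each gene's change. Over the 10 genes the 95% intervals, not adjusted for the number of genes, reached from 0.717-fold (ATG7) to 1.43-fold (MAP1LC3B). In this fit of all libraries each excluded a 1.5-fold change in either direction. With a library left out the log2 estimates moved. MAP1LC3B was at 0.39 without scramble replicate 2, and ATG7 at -0.22 without SETD2 siRNA replicate 3. The intervals of those fits are not given here. The median log2 fold change of the 10 genes was 0.077, against 0.014 for all tested genes. Above 0 were 7 genes, of which ATG5 and ATG12 were below 0 on TPM without mitochondrially encoded genes. Both SETD2 siRNA libraries were above both scramble libraries for 2 of 10 genes (ATG3 and ATG14), against 22.9% of tested genes, and below for 2 of 10 (ATG7 and TFEB), against 20.6%. These shares are near the background. On TPM without mitochondrially encoded genes ATG3 and ATG14 overlapped between these groups, the median was -0.017 and 5 genes were below 0. Without SETD2 siRNA replicate 3 the median was -0.029 with 5 genes below 0, without replicate 2 it was 0.16, and without scramble replicate 1 it was 0.030.

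With hnRNP L depleted, most of the genes were lower than scramble, without passing the test. The log2 fold change was below 0 for 8 of 10, against 61.2% of tested genes, with a median of -0.19 against -0.084 for all tested genes. Both hnRNP L siRNA libraries were below both scramble libraries for 7 of 10, all except MAP1LC3B, SQSTM1 and ATG13, against 37.8%. The 2 genes with an unadjusted p under 0.05, ATG7 and TFEB, were both lower, against 20.3% of tested genes that were lower at this p. Under median-ratio scaling, which sets the median of all tested genes near 0, the median of the 10 genes was -0.098. In TPM as deposited, ATG3 and ATG14 were above both scramble libraries with SETD2 siRNA and below both with hnRNP L siRNA.

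Compared directly, all 10 genes had a lower estimate with hnRNP L siRNA than with SETD2 siRNA, against 64.2% of tested genes below 0, although ATG13 and MAP1LC3B were above 0 under median-ratio scaling. Their log2 differences ran from -0.33 for TFEB to -0.081 for ATG13, with a median of -0.27 against -0.099 for all tested genes. Without hnRNP L siRNA replicate 1 the median was -0.13 with 9 genes below 0, against -0.061 for all tested genes. The libraries of the 2 groups did not overlap for 8 of 10, all except MAP1LC3B and ATG13, against 41.2%. Of these 8, ATG7 and ATG12 did overlap on TPM without mitochondrially encoded genes. ATG3 (unadjusted p = 0.0142), ATG16L1 (unadjusted p = 0.0269) and TFEB (unadjusted p = 0.0483) were the genes under 0.05 before the limma adjustment over all genes, with adjusted p of 0.0853, 0.121 and 0.172. Under median-ratio scaling the median of the 10 genes was -0.16, with ATG13 at 0.028 and MAP1LC3B at 0.020.

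The other genes of the pathway were taken from 10 lists by role, 92 genes beside the 10 above, of which all but MAP1LC3A and TFEC passed the filter. After SETD2 depletion 0 of the 100 listed genes tested were called, against 0.104% of all tested genes. An unadjusted p under 0.05 was reached by 13 of the 100, 7 higher and 6 lower, against 13.1% of all tested genes. After hnRNP L depletion 6 of 100 were called lower (6.0%), against 5.01% of all tested genes, and 0 were called higher. Against SETD2 siRNA 6 of 100 were again called lower (6.0%), against 4.69%, and 0 higher. Both shares are near the background, and the calls depended on single libraries and on the scaling. In these comparisons the calls among all tested genes also fell when a library of a compared group was left out (below). In the limma fit without hnRNP L siRNA replicate 1 or without its replicate 2, 0 listed genes were called lower in either comparison, and 21 and 26 of the 100 were lower than scramble at an unadjusted p under 0.05, against 12.0% and 16.8% of all tested genes in the same fits. Without scramble replicate 1, 3 genes were called against scramble, and against SETD2 siRNA 0 were called without siSETD2 replicate 2 or replicate 3, with 31 and 20 of the 100 lower at an unadjusted p under 0.05, against 17.0% and 12.4% of all tested genes. Under median-ratio scaling 0 calls remained against scramble, with 25 of the 100 lower at an unadjusted p under 0.05, against 15.4% of all tested genes, and 1 (ATP6V1H) against SETD2 siRNA.

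Among the genes called lower than scramble after hnRNP L depletion, 3 were lysosomal. CTSD, the protease cathepsin D, was at 126.31 and 127.87 TPM in the scramble libraries, 134.03 and 134.74 in the siSETD2 libraries and 83.51 and 82.33 in the sihnRNPL libraries, a log2 fold change of -0.61 (limma adjusted p = 0.00627). NEU1, a sialidase, was at 24.41 and 27.30 TPM, 23.52 and 23.23 TPM, and 15.41 and 16.97 TPM in the same order. The hnRNP L siRNA libraries of both genes were below all 4 others. NEU1 fell by 0.66 on the log2 scale (limma adjusted p = 0.0105) and LAMP2, a lysosomal membrane protein, by 0.60 (limma adjusted p = 0.0241), or by 0.44 and no longer called without scramble replicate 1. The remaining calls were ULK1, TSC2, which restrains mTORC1 (-0.59, limma adjusted p = 0.00957), and VMP1, a membrane protein of early autophagosomes (-0.59, limma adjusted p = 0.012).

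**Figure D3:**
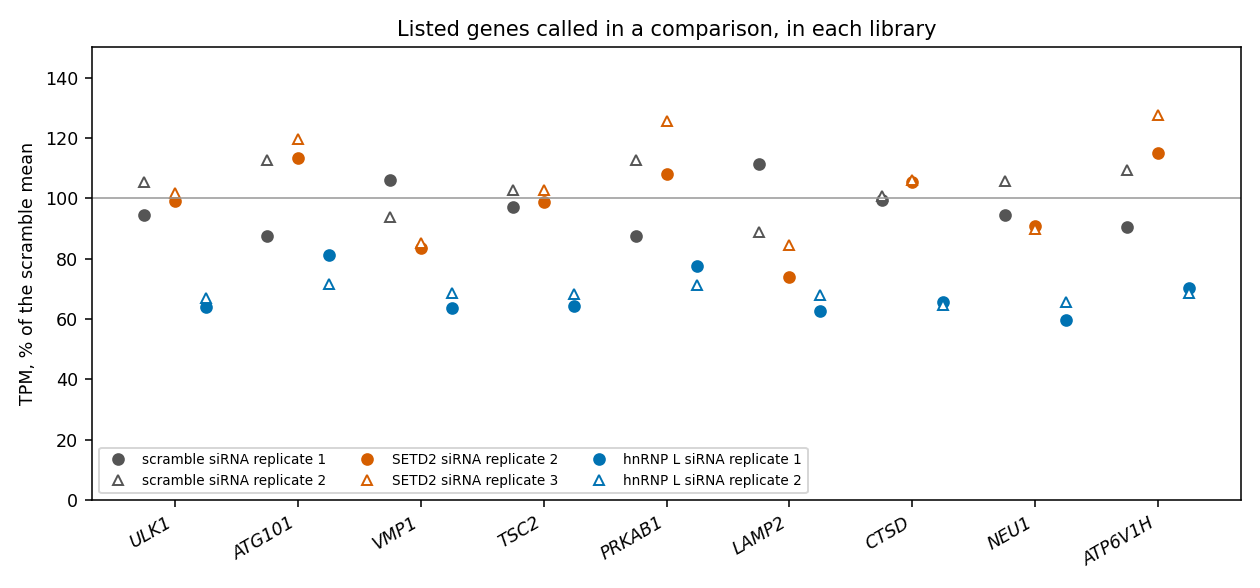
TPM as a percentage of the scramble mean (vertical axis) for the 9 listed genes called in a comparison, in each of the 6 libraries. The hnRNP L siRNA libraries are the lowest for every gene, down to NEU1, whose mean was 63.4% of scramble on the fitted log2 scale, and the SETD2 siRNA libraries lie on both sides of the scramble mean.

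The list of lysosomal genes was written with earlier results of these data known. Some lysosomal genes, a called gene among them, were taken off it after the values were seen, for a reason unrelated to those values. Within the 17 lysosomal genes kept, 16 had a log2 fold change below 0 after hnRNP L depletion, with a median of -0.37 against -0.084 for all tested genes. An unadjusted p under 0.05 was reached by 12 lower genes and 0 higher ones (70.6%, against 20.3% of tested genes lower at this p), and in 14 the libraries did not overlap and were lower (82.4%, against 37.8%). Under median-ratio scaling the median was -0.27, against 0.00062 for all tested genes, and 11 genes were lower at this p, against 15.4%. On TPM without mitochondrially encoded genes the median was -0.41, against -0.13, and 13 genes were lower, against 24.1%. After SETD2 depletion the same genes had a median of -0.072, against 0.014 for all tested genes, or -0.013 against -0.017 without scramble replicate 1. An unadjusted p under 0.05 was reached by 2 lower genes (11.8%, against 6.36%) and 1 higher gene. Both siSETD2 libraries were below both scramble libraries in 7 (41.2%, against 20.6%) and above both in 5, against 22.9% of tested genes. LAMP2 was at -0.33 (limma adjusted p = 0.338), or -0.17 without scramble replicate 1. ATP6V0D1, a subunit of the lysosomal proton pump, had the largest value of the list in that comparison, at 0.43 (limma adjusted p = 0.237), or 0.26 without scramble replicate 1.

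The remaining lists held few or no calls. As the background for their directions, 61.2% of all tested genes were below 0 after hnRNP L depletion, with a median of -0.084. In the ULK1 complex all 5 genes were below 0 after hnRNP L depletion, with a median of -0.37. Without scramble replicate 2 this median was -0.19, and without hnRNP L siRNA replicate 1 only 4 were below 0. ATG101 (-0.60, limma adjusted p = 0.0295) was called beside ULK1 against SETD2 siRNA. In the class III PI3-kinase complexes the median of 8 genes was -0.13, or -0.019 without hnRNP L siRNA replicate 1 and -0.21 without replicate 2. BECN1, the scaffold of the complex, was at 0.29 after SETD2 depletion (limma adjusted p = 0.327), and after hnRNP L depletion the regulatory subunit PIK3R4 was at -0.52 against scramble (limma adjusted p = 0.041, a fold change under 1.5) and the catalytic subunit PIK3C3 at -0.44 against SETD2 siRNA (limma adjusted p = 0.0505). ATG14 is one of the alternative partners of this complex, and its ratio to the other, UVRAG, was 0.503 ± 0.0022, 0.560 ± 0.0018 and 0.486 ± 0.0087 (SD, n = 2) with scramble, SETD2 and hnRNP L siRNA. This was 1 of 9 ratios computed within libraries, and its 3 pairs of values did not overlap, a difference for which exact permutation gives its smallest two-sided p of 0.333 in each pair of groups. Its ratio to BECN1 was 0.0804 ± 0.0083, 0.0713 ± 0.00077 and 0.0704 ± 0.00084 (SD, n = 2), with the 4 depleted libraries below both scramble libraries.

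Among the vesicle and lipid-transfer genes VMP1 had the largest value of its list after SETD2 depletion as well, at -0.24 (limma adjusted p = 0.369) or -0.16 without scramble replicate 1, and ATG9A, the membrane protein of the seed vesicles, had the largest against SETD2 siRNA, at -0.58 (limma adjusted p = 0.0214, a fold change just under 1.5). Of the 11 conjugation genes, 5 of which are described above, 10 were below 0 after hnRNP L depletion with a median of -0.21. The protease ATG4B was lowest at -0.42 (limma adjusted p = 0.0277) and -0.39 against SETD2 siRNA (limma adjusted p = 0.0357), both under 1.5-fold. ATG16L2, the paralogue of ATG16L1, was at -0.46 after SETD2 depletion (limma adjusted p = 0.215). Of the ATG8 genes tested, 6 of 6 were above 0 after hnRNP L depletion (median 0.14), with MAP1LC3C at 0.32 (limma adjusted p = 0.378), a count that rested on scramble replicate 1. Without that library MAP1LC3B (-0.035) and GABARAPL2 (-0.15) were below 0, MAP1LC3C was at 0.10 and the median was 0.057, and without hnRNP L siRNA replicate 1 MAP1LC3B2 was at -0.086. GABARAPL1 was the ATG8 gene with the largest SETD2 siRNA value, at 0.32 (limma adjusted p = 0.251), and MAP1LC3C was at 0.56 against SETD2 siRNA (limma adjusted p = 0.132).

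The 10 cargo receptors had a median of 0.052 after hnRNP L depletion and 0 calls, and the median was -0.063 without scramble replicate 1 and -0.054 without hnRNP L siRNA replicate 2. Among them were RETREG1, a receptor for the endoplasmic reticulum, at -0.58 (limma adjusted p = 0.0717) and at -0.47 after SETD2 depletion (limma adjusted p = 0.325; -0.28 without scramble replicate 1), and FUNDC1, a mitochondrial receptor, at -0.47 against SETD2 siRNA (limma adjusted p = 0.0203). Of the 13 fusion genes 11 were below 0, or 9 without either scramble library or without hnRNP L siRNA replicate 1, with TECPR1 at -0.51 against scramble (limma adjusted p = 0.109) and -0.59 against SETD2 siRNA (limma adjusted p = 0.0728), values of -0.30 and -0.38 without hnRNP L siRNA replicate 1, and VPS18 at 0.38 after SETD2 depletion (limma adjusted p = 0.32). Among the transcription regulators TFEB had the largest value of its list in both hnRNP L comparisons, and FOXO3 was at 0.30 after SETD2 depletion (limma adjusted p = 0.412), or 0.15 without SETD2 siRNA replicate 3. The upstream kinases and their regulators had a median of -0.085 after hnRNP L depletion, which ranged from -0.19 without scramble replicate 1 to -0.025 without hnRNP L siRNA replicate 1. PRKAA1, a catalytic subunit of AMPK, was at -0.31 after SETD2 depletion (limma adjusted p = 0.44) but at -0.075 without scramble replicate 1, and PRKAB1, another AMPK subunit, was called against SETD2 siRNA (-0.63, limma adjusted p = 0.0292).

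**Figure D4:**
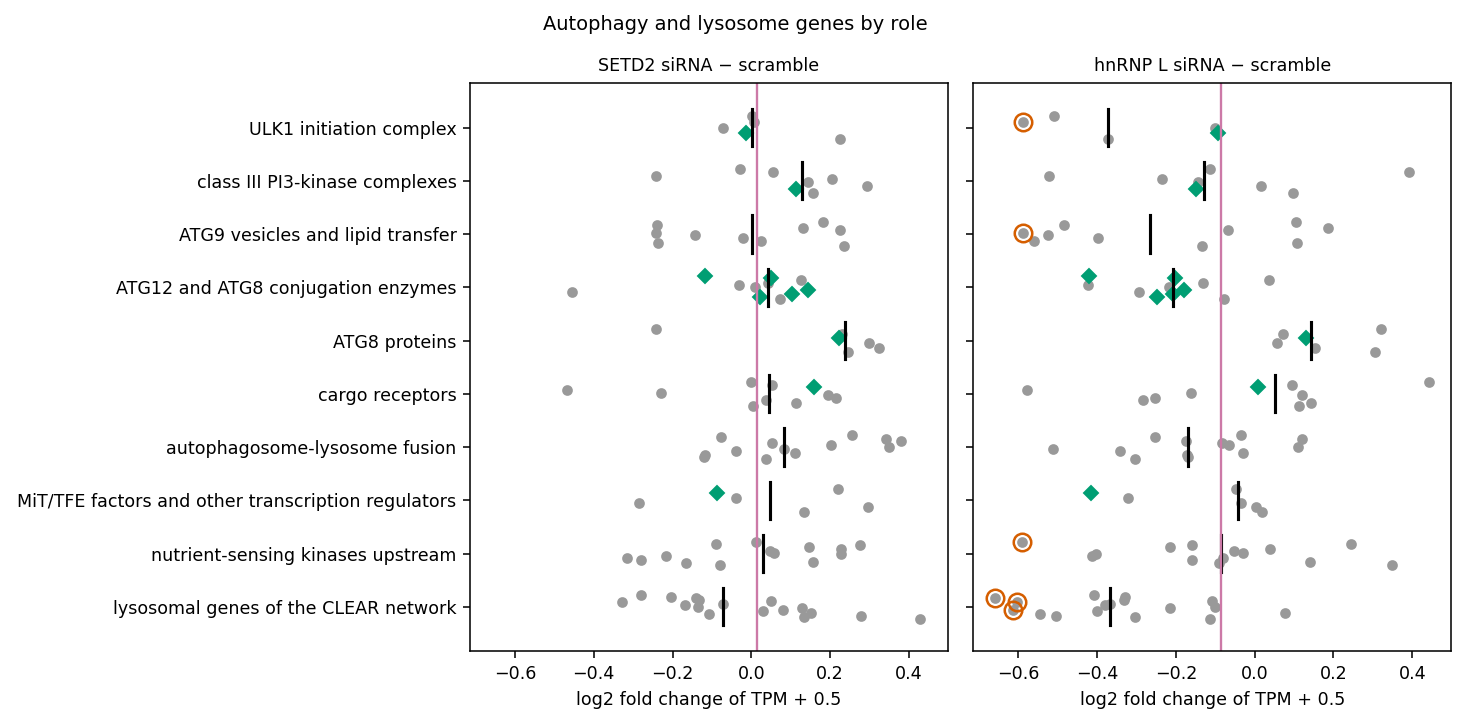
Log2 fold change of TPM + 0.5 (horizontal axis) of the listed genes by role for each depletion against scramble, with diamonds for the 10 autophagy genes, grey points for the others, rings for called genes, black bars for list medians and the coloured line for the median of all tested genes. After hnRNP L depletion the ULK1 complex and the lysosomal list have the lowest medians (-0.37 for both, and -0.19 and -0.37 without scramble replicate 2) with 1 and 3 rings, the ATG8 genes lie above 0 except that MAP1LC3B and GABARAPL2 are below 0 without scramble replicate 1 and MAP1LC3B2 without hnRNP L siRNA replicate 1, and the SETD2 siRNA panel holds no ring.

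Several of the 10 genes overlap a transcribed gene on the other strand, and the sources used here do not state whether counting used strand. ATG12 (chr5:115828200-115841837, minus strand) overlaps AP3S1, at a mean of 198 TPM the most abundant of these neighbours, SQSTM1 (chr5:179806398-179838078, plus strand) overlaps MGAT4B and MRNIP at 67.2 and 33.5 TPM, and ATG7 (chr3:11272309-11557665, plus strand) overlaps VGLL4 at 18.8 TPM. ATG14 (chr14:55366391-55411830, minus strand) overlaps FBXO34 at 12.9 TPM. Without strand, reads from the overlapping parts cannot be assigned to either gene. ATG12 has 13 annotated transcripts, 2 of them coding, and single isoforms were not analysed here.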

How the data were processed

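RNA-seq of 6 libraries of 293T cells was analysed, with groups taken from the sample titles. H3K36me3 ChIP-seq was not used here. The authors mapped read pairs to hg38 with STAR 2.6.1c and Ensembl gene models and computed the deposited values, TPM for every gene, with RSEM 1.3.0, from RNA that was ribodepleted and polyA-enriched. TPM keep no depth, so no counting interval was given.

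The log2(TPM + 0.5) values, a scale that understates changes of low genes, were fitted for the 16300 genes with a mean of at least 0.5 TPM. The fit used limma 3.58.1 (R 4.3.3) with siRNA as the only factor, all libraries together and a trended prior variance, followed by Benjamini-Hochberg adjustment over all tested genes. Calls needed a fold change of more than 1.5 and an adjusted p below 0.05. Loci, overlaps and CA repeats came from GENCODE release 44, and Python 3.11.15, pandas 2.3.3 and Matplotlib 3.10.9 served for tables and plots.

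The named genes are the 10 autophagy genes, SETD2 and HNRNPL, every gene of 10 lists by role that was called, and otherwise the gene of each list with the largest fold change in each comparison. Likeness of pattern was Pearson's r over the 6 libraries. The genes, lists, named-gene rule and tests were chosen with earlier results of these data known. Some lysosomal genes, one of them called, were taken off the lists after the values were seen, for a reason unrelated to those values, and are not reported here.

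Each result was recomputed with the pseudocount at 1 or 0.1, without a filter or with one at a mean of 1 TPM, on protein-coding and lncRNA genes alone (93 tested genes had no biotype), after median-ratio scaling, after quantile normalization, on TPM rescaled without mitochondrially encoded genes, with the compared groups alone, with a constant prior variance, without the fold change threshold, with 1 library removed at a time, and with a replicate block where numbers were shared. The fit was tested on simulated data.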

Additional observations from a re-analysis of the deposited data

Results flagged for a closer look

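For 6 listed genes the test of hnRNP L siRNA against SETD2 siRNA found that the effects of the depletions differed, with hnRNP L siRNA the lower in each. The differences on the log2 scale were -0.78 for ATP6V1H, a subunit of the lysosomal proton pump, -0.69 for CTSD, -0.63 for PRKAB1, -0.60 for TSC2, -0.60 for ATG101 and -0.59 for ULK1, with limma adjusted p from 0.0044 for CTSD to 0.0295 for ATG101. None of these is among the 10 autophagy genes, and 4.69% of all tested genes were called lower in this comparison. For ATP6V1H the libraries were at 17.86 and 21.62 TPM in the scramble libraries, 22.73 and 25.20 in the siSETD2 libraries and 13.84 and 13.56 in the sihnRNPL libraries. ATP6V1H, PRKAB1 and ATG101 were not called against scramble, where ATP6V1H was at -0.51 (limma adjusted p = 0.0356, a fold change under 1.5). All 6 calls were lost without either SETD2 siRNA library and without either hnRNP L siRNA library, and all 6 were kept without either scramble library.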

How the results depend on the processing

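None of the 10 autophagy genes was called in any comparison under any alternative, and with 2 libraries a group this bounds only changes as large as the intervals allow. The lowest adjusted p of any of them was 0.0593, for ATG3 between the depletions. The listed genes called lower than scramble after hnRNP L depletion, 6 in all, numbered 3 with a pseudocount of 1, 2 without a filter, 0 under median-ratio scaling, 1 under quantile normalization, 16 without the fold change cut-off and 0 to 5 with a library left out (0 without hnRNP L siRNA replicate 1 or 2, 3 without scramble replicate 1). Against SETD2 siRNA the 6 calls became 2 without a filter, 1 under median-ratio scaling, 2 under quantile normalization, 2 on TPM without mitochondrially encoded genes, 17 without the cut-off and 0 to 6 with a library left out. In the sources used here the labels give scramble and hnRNP L siRNA the same replicate numbers but nothing that pairs them (r = -0.13 between their deviations). With the replicate block 4 listed genes were called (CTSD, NEU1, TSC2 and VMP1) and 715 of all tested genes in place of 1102, and no autophagy gene's call changed. With crossed numbers, a setting chosen after seeing the data, the counts were 6 and 1406. SETD2 siRNA shares only number 2 with the other groups and was not blocked.

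Small log2 fold changes turned sign. Against scramble under SETD2 siRNA, TPM without mitochondrially encoded genes gave -0.044 for ATG5, -0.072 for ATG12, -0.017 for CTSD, -0.065 for HNRNPL, -0.086 for TSC2 and -0.089 for ULK1. Quantile normalization gave -0.094 for HNRNPL, -0.048 for TSC2 and -0.0060 for ULK1, and median-ratio scaling -0.0050 for TSC2 and -0.0093 for ULK1. With a library left out the values ranged from -0.066 to 0.17 for ATG5, -0.062 to 0.11 for ATG12, -0.18 to 0.16 for ATG13, -0.18 to 0.24 for HNRNPL, -0.031 to 0.053 for TSC2 and -0.070 to 0.082 for ULK1. After hnRNP L depletion SQSTM1 was at -0.040 on TPM without mitochondrially encoded genes, and with a library left out the ranges were -0.27 to 0.086 for ATG13, -0.035 to 0.30 for MAP1LC3B and -0.15 to 0.16 for SQSTM1. Against SETD2 siRNA, ATG13 was at 0.028 under median-ratio scaling, 0.031 under quantile normalization and -0.26 to 0.098 with a library left out, and MAP1LC3B was at 0.020 and 0.019 under these scalings. Of all values recomputed for the 10 autophagy genes, 511 kept their direction and their side of the threshold and 19 turned sign. Many settings cannot move a fold change, such as another filter, a constant prior variance or leaving out a library of the group not compared. The count of kept values is therefore no measure of stability. The cause of the sign changes was not tested.

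All tested genes called numbered 17 after SETD2 depletion, and 1 without a filter, 27 at a mean of at least 1 TPM, 60 among protein-coding and lncRNA genes, 8 without scramble replicate 1 and 38 without scramble replicate 2. After hnRNP L depletion the 1102 calls became 235 without a filter, 1826 without the cut-off, 363 without scramble replicate 1, 172 without hnRNP L siRNA replicate 1 and 227 without replicate 2. Between the depletions the 1115 calls became 186 without a filter, 1753 without the cut-off, 127 and 170 without SETD2 siRNA replicates 2 and 3, and 143 and 230 without hnRNP L siRNA replicates 1 and 2.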

Other observations

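Over the 6 libraries the patterns of log2(TPM + 0.5) most alike among the 10 autophagy genes were those of ATG3 and ATG16L1 (Pearson's r = 0.974), ATG3 and ATG5 (0.951), ATG7 and ATG12 (0.937) and ATG5 and ATG16L1 (0.929). ATG14 was most like ATG12 (0.908), and MAP1LC3B was most like SQSTM1 (0.858). The least alike were MAP1LC3B and TFEB (-0.0997). These values describe 6 libraries that share their scaling within a library, and with so few points high values are common.

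The tested genes whose pattern was most like ATG12 were ZNF134 (r = 0.995), AC018653.3 (0.994) and FAM107B (0.993), and 559 tested genes had an r above 0.9. FAM107B was at 20.99 and 19.82 TPM in the scramble libraries, 19.20 and 23.03 in the siSETD2 libraries and 14.77 and 19.42 in the sihnRNPL libraries, close to the values of ATG12 in each library. Those most like ATG14 were PIK3R3 (r = 0.998), XPNPEP1 (0.997) and ARPIN (0.994), and 771 had an r above 0.9. PIK3R3 was at 9.19 and 9.52 TPM in the scramble libraries, 10.31 and 10.88 in the siSETD2 libraries and 7.11 and 8.83 in the sihnRNPL libraries, above scramble in both SETD2 siRNA libraries and below it in both hnRNP L siRNA libraries, as ATG14 was. The ratio of ATG12 to ATG5, its acceptor, was 1.45 ± 0.17, 1.41 ± 0.046 and 1.41 ± 0.25 (SD, n = 2) with scramble, SETD2 and hnRNP L siRNA, and that of ATG3 to ATG7 was 8.07 ± 0.20, 9.73 ± 0.061 and 9.89 ± 2.3 (SD, n = 2).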
